A study of Mus musculus with 8 samples.

Results

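The genes described here, measured as RNA in pancreatic islets, encode proteins that handle calcium of the endoplasmic reticulum (ER). They are the 3 IP3 receptor genes (Itpr1, Itpr2, Itpr3), the ryanodine receptor gene Ryr2, the calcium pump genes Atp2a2 and Atp2a3, the store entry genes Stim1, Stim2 and Orai1, and Tmbim6. They were taken by symbol, and all 10 were found among the 24537 genes of the deposited count table. Polyadenylated RNA was sequenced from islets of 12-week-old male mice, 4 Wfs1KO samples and 4 WT samples. Wfs1KO is a knockout of Wfs1, which encodes wolframin, a membrane protein of the ER. The labels give neither the allele nor the strain, and they do not say how many animals gave each islet sample, so p-values measure the spread between these samples.

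The ER is the main releasable calcium store of the beta cell, the insulin-secreting cell of the islet. SERCA pumps (sarco/endoplasmic reticulum calcium ATPases) fill it, while IP3 receptors and ryanodine receptors let calcium out into the cytosol. When the store runs low, STIM proteins in the ER membrane sense the loss and open ORAI channels in the plasma membrane, which is called store-operated entry.

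Exon counts per library were between 16395855 and 27057617 in Wfs1KO and between 15810830 and 21552731 in WT. Wfs1 stood at 101.1, 105, 125 and 98.9 CPM (read counts scaled to library size with edgeR's TMM factors) in Wfs1KO replicates 1 to 4, against 182, 156, 190.1 and 188 CPM in WT replicates 1 to 4, so its exons still gave reads in the knockout libraries. The islet hormone genes were the most abundant of their lists, with Ins2 at 66259 ± 7308 CPM in Wfs1KO and 114880 ± 14856 CPM in WT, and Gcg at 19662 ± 3352 CPM in Wfs1KO and 16939 ± 1994 CPM in WT (SD, n = 4 each). The first principal component (37.9% of variance) parted replicates 1 and 2 from replicates 3 and 4 in both genotypes. In replicates 1 and 2 the share of aligned reads counted in exons was 62.2% and 66.9% in Wfs1KO and 65.3% and 60.0% in WT. In replicates 3 and 4 it was 76.5% and 76.2% in Wfs1KO and 73.3% and 71.9% in WT. What the replicate numbers mark is not given in the labels, so values within replicates 1 and 2 and within replicates 3 and 4 are given below for each gene.

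Across the 10 genes, 2 rose and 3 fell in Wfs1KO islets. The IP3 receptor genes moved in opposite directions: Itpr2 rose 1.72-fold and Itpr3 fell by 30.3%, while Itpr1 did not pass the test. Both pump genes fell, Atp2a2 by 22.9% and Atp2a3 by 22.3%. Tmbim6 was 15.7% higher, and the store entry genes Stim1, Stim2 and Orai1 did not pass. Calls rest on edgeR's quasi-likelihood test over all 15733 tested genes, with Benjamini-Hochberg adjustment and a threshold of 0.05. By that rule 18.9% of all tested genes were called, 10.4% higher and 8.49% lower, against 5 of these 10 genes. Among tested genes with a mean of at least 50 CPM, as 8 of the 10 have, 29.1% were called. The 10 genes were chosen with earlier results of these data known, so no conclusion is drawn from the share called.

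**Figure D1:**
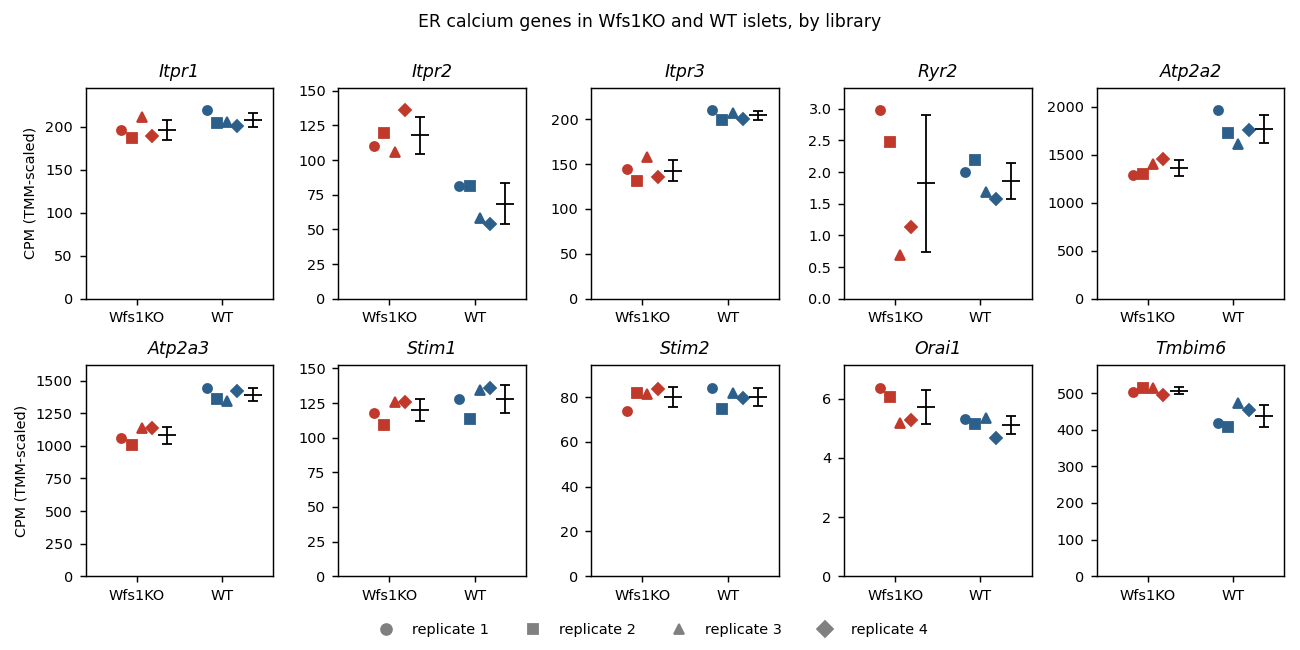
TMM-scaled CPM (linear axis from 0) of the 10 genes in each library, with Wfs1KO left of WT. Symbols mark the replicate number, and the bar beside each group is the mean ± SD (n = 4). The groups part without overlap for Itpr2, Itpr3, Atp2a2, Atp2a3 and Tmbim6, as they do for 22.6% of all tested genes.

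Itpr2 and Itpr3 encode 2 of the 3 channels that open when the messenger IP3 binds. Itpr2 (NM_019923, chromosome 6, 146108299 to 146502223 in mm10, minus strand) had 110.2, 119.5, 106 and 136 CPM in Wfs1KO replicates 1 to 4, against 80.9, 81.4, 58.1 and 53.6 CPM in WT replicates 1 to 4. All 4 Wfs1KO libraries lay above the highest WT library, an order found for 12.3% of tested genes. The log2 fold change was 0.78 (SE 0.15, 95% interval 0.43 to 1.13, edgeR adjusted p = 0.00824). The WT libraries fell into a higher pair, replicates 1 and 2, and a lower pair, replicates 3 and 4. The fitted change was accordingly 0.48 within replicates 1 and 2 and 1.11 within replicates 3 and 4, called in both. Without Wfs1KO replicates 3 and 4 the call was lost (0.72, edgeR adjusted p = 0.0714).

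Itpr3 (NM_080553, chromosome 17, 27057304 to 27122223, plus strand) had 145, 131, 158 and 136 CPM in Wfs1KO replicates 1 to 4, against 210.0, 199, 207 and 201 CPM in WT replicates 1 to 4. The Wfs1KO libraries all lay below the WT libraries, as in 10.3% of tested genes, and the WT values kept within a narrow band. The log2 fold change was -0.52 (SE 0.06, 95% interval -0.65 to -0.39, edgeR adjusted p = 5.93e-05). It was -0.59 within replicates 1 and 2 and -0.48 within replicates 3 and 4, called in both. Exons of Itpr3 overlap those of the antisense gene Itpr3os in GENCODE M21. The library kit named in the labels does not mark strand, so reads of the antisense gene could not be told apart from those of Itpr3. The same holds for Atp2a2 (antisense Gm43361), Itpr1 (Gm44040 and Gm44101) and Orai1 (Gm2479).

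Itpr1 (NM_010585, chromosome 6), the form best known from neurons, had 196, 186, 212 and 189 CPM in Wfs1KO replicates 1 to 4, against 219, 205, 205 and 201 CPM in WT replicates 1 to 4. The ranges overlapped, with 3 of 4 Wfs1KO libraries below all WT libraries. The log2 fold change of -0.08 had a 95% interval of -0.20 to 0.04 (edgeR adjusted p = 0.347). It was -0.17 within replicates 1 and 2 and -0.0266 within replicates 3 and 4, called in neither.

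The ratio of Itpr2 to Itpr3 within a library does not depend on how libraries are scaled. Per kilobase of exon it was 0.579, 0.692, 0.510 and 0.759 in Wfs1KO replicates 1 to 4, against 0.293, 0.311, 0.213 and 0.203 in WT replicates 1 to 4. No Wfs1KO library overlapped a WT library, and the ratio was 2.51-fold higher in Wfs1KO (log2 difference 1.33, SE 0.20). The two-sided exact permutation test over the 8 samples gave p = 0.0286, the smallest that 4 against 4 allows. With libraries paired by replicate number, an exact sign-flip permutation test gave p = 0.125, the smallest that 4 pairs allow. Adjusted over the 3 ratios examined, the permutation p over the 8 samples became 0.0857 and the paired sign-flip p became 0.375. After adjustment over the 3 ratios, this design therefore cannot pass 0.05 when only 1 ratio reaches its smallest p. The paired test cannot pass 0.05 even before adjustment.

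Of the summed IP3 receptor level per kilobase, Itpr2 made up 21.9% ± 2.83 in Wfs1KO and 11.6% ± 2.11 in WT, and Itpr3 made up 34.7% ± 1.69 in Wfs1KO and 45.9% ± 1.58 in WT (SD, n = 4 each). Itpr1 held 43.5% ± 1.20 in Wfs1KO and 42.5% ± 0.611 in WT. The sum itself ranged from 43.9 to 48.2 CPM per kilobase in Wfs1KO and from 47.5 to 52.7 CPM per kilobase in WT. Itpr2 thus stayed the least abundant of the 3 in both genotypes, while Itpr3 and Itpr1, whose ranges overlapped in WT, were parted in Wfs1KO with Itpr1 higher.

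**Figure D2:**
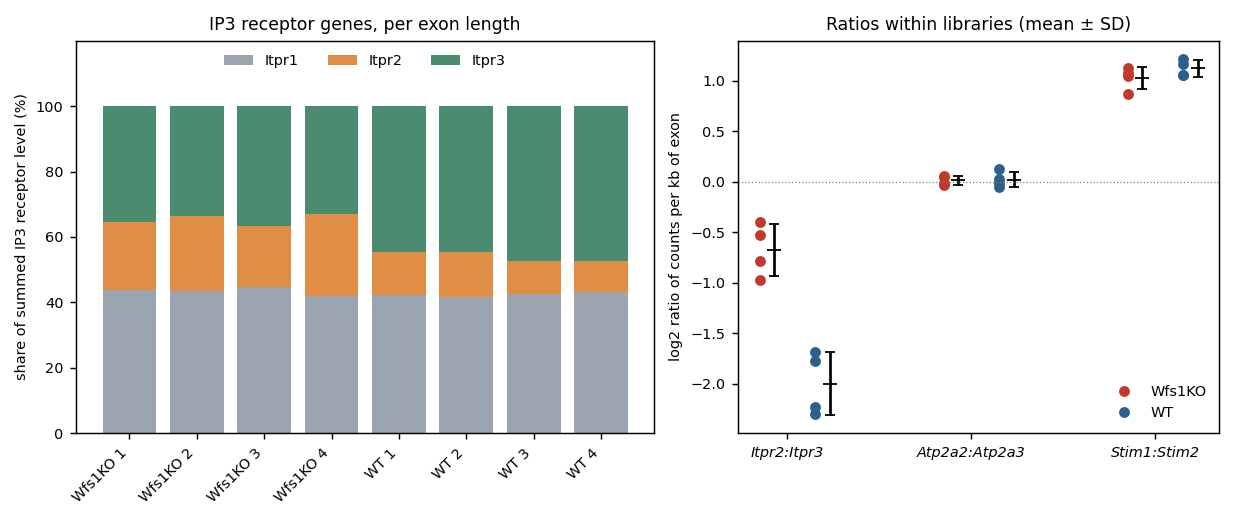
Left, stacked bars give the share (%) of the summed IP3 receptor level per kilobase of exon held by Itpr1, Itpr2 and Itpr3 in each library. Right, log2 ratios of counts per kilobase within each library (points), with mean ± SD beside them (n = 4 per genotype). The Itpr2:Itpr3 ratio is higher in every Wfs1KO library than in any WT library, while the other ratios overlap.

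In the same libraries the summed level of 12 endothelial markers was 821 to 963 CPM in Wfs1KO and 599 to 685 CPM in WT, and 12 of 12 rose. That of 12 pericyte and stellate cell markers was 357 to 421 CPM in Wfs1KO and 213 to 303 CPM in WT, and 4 of 12 rose. The 10 beta cell markers summed to 110440 to 135700 CPM in Wfs1KO and 163210 to 209020 CPM in WT, with 8 lower and 1 higher. The 14 acinar markers, of the enzyme-secreting cells around islets, ran from 10037 to 69554 CPM in Wfs1KO and from 32684 to 72284 CPM in WT. Of these, 1 was higher, none lower and 13 did not pass, with a median log2 fold change of -0.35. Of the alpha, delta and PP, ductal and macrophage lists, 1, 3, 1 and 0 genes rose, and 1 ductal gene fell. The most abundant markers were Kdr for endothelial cells (log2 fold change 0.40), Rgs5 for pericytes (0.70), Ctrb1 for acinar cells (-0.44), Ppy for delta and PP cells (0.21), Krt7 for ductal cells (-0.14) and C1qa for macrophages (0.01), of which Kdr and Rgs5 passed. No marker of these lists was at 0 in any library. The part of any of them in the changes of Itpr2, Itpr3 and the pump genes was not tested, and in bulk RNA fewer cells of a type and less RNA per cell cannot be told apart.

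The promoters of Itpr2 and Itpr3 are shown because these receptor genes moved in opposite directions. Each covers the 250 bases before the start of the counted transcript, from the RefSeq promoter entries in GRCm38.p6, the build of mm10. The RefSeq gene as a whole starts further upstream, at 146502258 for Itpr2 and at 27057002 for Itpr3, so part of the Itpr2 window and all of the Itpr3 window lie within it. Capitals mark CCAAT and CCACG on either strand, the 2 outer parts of the ER stress element.
Itpr2, chr6:146502224-146502473, minus strand: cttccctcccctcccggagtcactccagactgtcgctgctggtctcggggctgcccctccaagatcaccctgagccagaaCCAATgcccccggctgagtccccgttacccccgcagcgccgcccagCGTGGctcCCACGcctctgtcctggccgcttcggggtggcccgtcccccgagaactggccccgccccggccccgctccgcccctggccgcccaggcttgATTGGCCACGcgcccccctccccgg
Itpr3, chr17:27057054-27057303, plus strand: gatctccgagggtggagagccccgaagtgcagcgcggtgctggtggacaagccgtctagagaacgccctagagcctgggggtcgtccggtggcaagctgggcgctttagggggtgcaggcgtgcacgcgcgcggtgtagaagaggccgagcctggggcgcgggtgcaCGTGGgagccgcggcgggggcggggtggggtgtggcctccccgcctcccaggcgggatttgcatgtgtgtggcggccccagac

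The Itpr2 window holds 2 CCAAT and 3 CCACG matches, and the Itpr3 window holds 0 and 1. They are not particular to Itpr2, since the windows of Stim2 (1 and 5) and Orai1 (1 and 3), which did not pass the test, hold them as well. CCAAT occurs in 34.5% and CCACG in 28.2% of 27025 RefSeq promoters of the same length. The full ER stress element (CCAAT, any 9 bases, CCACG), which contains both short motifs, occurs in 0.122% of promoters. The unfolded protein response element TGACGTGG occurs in 0.503% and the ATF4 element TGATGNAA in 3.53%. None of these last 3 motifs was found on either strand in the windows of the 7 members with an entry, which were Itpr2, Itpr3, Ryr2, Atp2a3, Stim1, Stim2 and Orai1. A match or its absence describes only the letters in these windows, and the 2 short motifs were added after the data were seen.

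Ryr2 encodes the ryanodine receptor best known from heart muscle, where it releases calcium in response to calcium. Its counts in these islets were 85, 51, 12 and 23 reads in Wfs1KO replicates 1 to 4, against 38, 38, 25 and 32 reads in WT replicates 1 to 4. Scaled to depth, the Wfs1KO libraries (0.692 to 2.98 CPM) lay on both sides of the WT libraries (1.57 to 2.19 CPM). Its log2 fold change was -0.0088 with a wide 95% interval of -0.84 to 0.82 (edgeR adjusted p = 0.991), so neither a rise nor a fall of that size can be told from no change in these libraries. The spread went beyond counting error, with exact Poisson 95% intervals of 67.9 to 105 reads for Wfs1KO replicate 1 and 6.20 to 20.96 reads for Wfs1KO replicate 3. These intervals are of unscaled reads, and replicate 1 was the deeper library (27057617 exon counts against 16395855). Scaled to depth, Wfs1KO replicates 1 and 3 stood at 2.98 and 0.692 CPM. In both genotypes replicates 1 and 2 had more Ryr2 than replicates 3 and 4. The fitted change was 0.36 within replicates 1 and 2 and -0.82 within replicates 3 and 4, called in neither.

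Atp2a2 encodes SERCA2, the pump found in nearly all cells, and Atp2a3 encodes SERCA3, a form with lower calcium affinity. Atp2a2 (NR_027838, chromosome 5, 122453513 to 122502225, minus strand) had 1284, 1299.5, 1400.1 and 1457 CPM in Wfs1KO replicates 1 to 4, against 1963, 1725, 1612 and 1754 CPM in WT replicates 1 to 4. Every Wfs1KO library was below every WT library, as in 10.3% of tested genes. On the log2 scale Atp2a2 changed by -0.37 (SE 0.08, 95% interval -0.54 to -0.21, edgeR adjusted p = 0.00376). It was -0.53 within replicates 1 and 2 and -0.24 within replicates 3 and 4, where the call was lost (adjusted p = 0.0775). The entry's representative transcript is a non-coding RefSeq form, and the counts do not part the splice forms SERCA2a and SERCA2b.

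Atp2a3 (NM_001163337, chromosome 11, 72961169 to 72993043, plus strand) had 1056.5, 1003, 1133 and 1136 CPM in Wfs1KO replicates 1 to 4, against 1446, 1359, 1346 and 1419 CPM in WT replicates 1 to 4. Again all Wfs1KO libraries were below all WT libraries, as in 10.3% of tested genes. Atp2a3 changed by -0.36 on the log2 scale (SE 0.07, 95% interval -0.51 to -0.22, edgeR adjusted p = 0.00180), and it was called within replicates 1 and 2 (-0.47) and within replicates 3 and 4 (-0.29) as well.

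The proportion of the pump genes to each other did not differ beyond the spread between libraries. The Atp2a2:Atp2a3 ratio per kilobase was 0.976, 1.04, 0.992 and 1.03 in Wfs1KO replicates 1 to 4, against 1.09, 1.02, 0.962 and 0.993 in WT replicates 1 to 4. The ranges overlapped, and the log2 difference was -0.0077 (SE 0.04, exact permutation p = 0.886, adjusted over the 3 ratios 0.886). Their summed level was 447 to 503 CPM per kilobase in Wfs1KO and 576 to 660 CPM per kilobase in WT, with no overlap. In the same libraries 8 of 10 beta cell markers were lower and 1 higher, and 12 of 12 endothelial markers were higher. So were 4 of 12 pericyte and stellate cell markers and 3 of 6 delta and PP cell markers. Any part of these in the lower RNA of the pump genes and Itpr3 was not tested.

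No store entry gene among the 10 passed the test. Stim1, the principal ER calcium sensor, had 118, 109, 126 and 126 CPM in Wfs1KO replicates 1 to 4, against 128, 114, 134 and 136 CPM in WT replicates 1 to 4. Stim2, which responds to smaller losses of store calcium, had 73.7, 82.0, 81.3 and 83.4 CPM in Wfs1KO replicates 1 to 4, against 84.2, 74.6, 81.9 and 79.8 CPM in WT replicates 1 to 4. The genotypes overlapped for both genes. Their log2 fold changes were -0.10 for Stim1 (95% interval -0.24 to 0.05, edgeR adjusted p = 0.359) and -0.00097 for Stim2 (95% interval -0.13 to 0.12, edgeR adjusted p = 0.994). Within replicates 1 and 2 they were -0.11 for Stim1 and -0.0508 for Stim2, and within replicates 3 and 4 they were -0.11 for Stim1 and 0.0203 for Stim2, called in neither.

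Stim2 lies 17.0 Mb from Wfs1 on chromosome 5, nearer than Atp2a2 (85.5 Mb) and Orai1 (86.0 Mb). The Stim1:Stim2 ratio per kilobase ranged from 1.82 to 2.17 in Wfs1KO and from 2.07 to 2.33 in WT, with a log2 difference of -0.10 (SE 0.07, exact permutation p = 0.229, adjusted over the 3 ratios 0.343). Orai1, the pore of store-operated entry, gave 79 to 182 reads per library, with 6.37, 6.05, 5.19 and 5.29 CPM in Wfs1KO replicates 1 to 4, against 5.31, 5.14, 5.34 and 4.66 CPM in WT replicates 1 to 4. Its log2 fold change was 0.17 with a 95% interval of -0.10 to 0.44 (edgeR adjusted p = 0.396). Replicates 1 and 2 of Wfs1KO lay above all WT libraries and the other two did not, and the fitted change was 0.23 within replicates 1 and 2 and 0.0665 within replicates 3 and 4, called in neither.

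Tmbim6 encodes BAX inhibitor 1, an ER membrane protein that lowers store calcium and restrains cell death. It had 502, 515, 513 and 495 CPM in Wfs1KO replicates 1 to 4, against 418, 406, 472 and 455 CPM in WT replicates 1 to 4. The Wfs1KO libraries were all above the WT libraries, as in 12.3% of tested genes. Tmbim6 rose by 0.21 on the log2 scale (SE 0.06, 95% interval 0.08 to 0.34, edgeR adjusted p = 0.0293). The call was lost without any 1 of 6 of the 8 libraries (adjusted p 0.0570 to 0.0932). It was kept without WT replicate 3 or without WT replicate 4. Within replicates 1 and 2 the change was 0.28, and within replicates 3 and 4 it was 0.11 (adjusted p = 0.383).

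Set per kilobase of exon, the 10 genes spanned more than 3 orders of magnitude on the log10 scale, and the order was similar in both genotypes. In Wfs1KO the pumps led with 238 ± 14.5 CPM per kilobase for Atp2a2 and 236 ± 14.0 for Atp2a3, whose ranges overlapped, followed by Tmbim6 with 196 ± 3.56 (SD, n = 4). In WT these stood at 309 ± 25.7, 304 ± 10.4 and 169 ± 11.9 CPM per kilobase (SD, n = 4), again with overlap between the pumps only. Stim1 came next with 33.3 ± 2.21 CPM per kilobase in Wfs1KO and 35.7 ± 2.83 in WT. The lowest were Orai1 with 3.07 ± 0.308 CPM per kilobase in Wfs1KO and 2.74 ± 0.167 in WT, and Ryr2 with 0.109 ± 0.0646 in Wfs1KO and 0.111 ± 0.0170 in WT. In Wfs1KO the middle order was Itpr1, Stim2, Itpr3 and Itpr2, with Stim2 and Itpr3 overlapping. In WT it was Itpr3, Itpr1, Stim2 and Itpr2, with Itpr3 and Itpr1 overlapping.

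**Figure D3:**
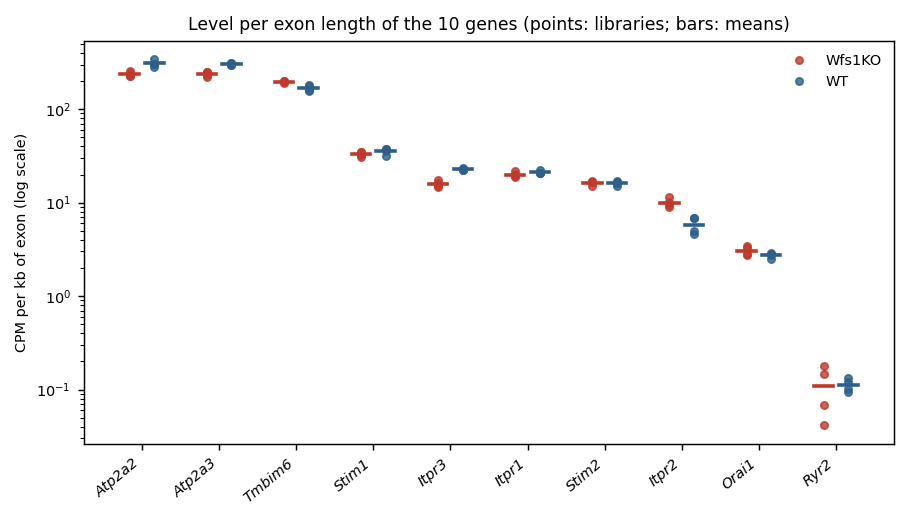
Level of each gene per kilobase of exon (CPM per kilobase, log axis), ordered by the WT mean. Points are libraries and bars are means (n = 4), with Wfs1KO left of WT. Both pump genes and Tmbim6 lie above all other genes in every library, and Ryr2 lies below all others.

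Other genes of ER calcium handling were taken from 5 lists, of which 83 genes were in the table and 78 were tested. Of these 17 rose, 10 fell and 51 did not pass, which is 34.6% called against 18.9% of all tested genes. Their median log2 fold change was 0.12, beside 0.01 over all tested genes. The lists describe the surroundings of the 10 genes and were not tested as sets. They were chosen with earlier results of these data known, so no conclusion is drawn from the share called.

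Genes that make and remove IP3 moved both ways, with 3 of 16 tested higher, 3 lower and 10 not passing (median log2 fold change 0.13). Itpkb, a kinase that converts IP3 to IP4, had 162, 155, 180.4 and 169.6 CPM in Wfs1KO replicates 1 to 4, against 327, 291, 304 and 302 CPM in WT replicates 1 to 4. The groups were far apart, and the log2 fold change was -0.87 (SE 0.06, edgeR adjusted p = 6.82e-07). Plch1, a phospholipase C of the eta type, fell by 0.71 on the log2 scale (19.5 ± 1.56 CPM in Wfs1KO and 31.9 ± 2.15 CPM in WT, SD, n = 4 each). Plce1, the phospholipase C of the epsilon type, rose by 0.55, with 12.2 ± 1.51 CPM in Wfs1KO and 8.34 ± 0.622 CPM in WT (SD, n = 4 each), but did not pass within replicates 3 and 4 alone (0.39, edgeR adjusted p = 0.0890).

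Among partners of IP3 and ryanodine receptors, 8 of 28 tested rose, 3 fell and 17 did not pass (median 0.18). Fkbp1b, which encodes calstabin 2, a subunit that binds ryanodine receptors, had 45.1, 42.1, 43.7 and 39.6 CPM in Wfs1KO replicates 1 to 4, against 72.2, 68.7, 63.4 and 79.7 CPM in WT replicates 1 to 4. The log2 fold change was -0.74 (SE 0.07, edgeR adjusted p = 1.18e-05), in islets where Ryr2 itself gave few reads. Erp44, an ER oxidoreductase that inhibits the IP3 receptor encoded by Itpr1, rose by 0.48 (165 ± 4.88 CPM in Wfs1KO and 118 ± 3.12 CPM in WT, SD, n = 4 each). Tmem38a, which encodes a potassium channel of the ER membrane that balances charge during calcium release, rose by 0.46 (53.3 ± 3.17 CPM in Wfs1KO and 38.7 ± 1.13 CPM in WT, SD, n = 4 each).

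Relatives and regulators of the calcium pumps were split, with 2 of 10 tested higher, 3 lower and 5 not passing (median 0.06). Calr, which encodes the calcium-binding chaperone calreticulin, had 905, 856, 932 and 854 CPM in Wfs1KO replicates 1 to 4, against 649.7, 606, 657 and 678 CPM in WT replicates 1 to 4. It rose by 0.45 (SE 0.06, edgeR adjusted p = 2.40e-04), opposite in sign to both pump genes in the same libraries. Erp29, an ER luminal protein, rose by 0.48, and Selenon, an ER selenoprotein reported to regulate SERCA2, fell by 0.31 (edgeR adjusted p = 0.0118).

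Of the partners of store entry, 2 of 19 tested rose, 1 fell and 16 did not pass (median 0.08), a share of calls near the 18.9% of all tested genes. Saraf, which turns off store-operated entry by acting on STIM1, had 522, 522, 526 and 497 CPM in Wfs1KO replicates 1 to 4, against 362, 326, 378 and 374 CPM in WT replicates 1 to 4. No Wfs1KO library came near the WT range, and the log2 fold change was 0.52 (SE 0.06, edgeR adjusted p = 6.12e-05). Esyt1, a tether between the ER and the plasma membrane, fell by 0.33 (116 ± 1.18 CPM in Wfs1KO and 146 ± 6.99 CPM in WT, SD, n = 4 each). Its relative Esyt3 rose by 0.56 (9.96 ± 1.18 CPM in Wfs1KO and 6.73 ± 0.631 CPM in WT, SD, n = 4 each), but did not pass within replicates 1 and 2 (0.28, edgeR adjusted p = 0.267) or without Wfs1KO replicates 3 and 4 (0.39, edgeR adjusted p = 0.0623). The other ORAI genes, named after their values were seen, stood at 0.15 (Orai2, edgeR adjusted p = 0.258) and -0.06 (Orai3, edgeR adjusted p = 0.701). Both had higher CPM than Orai1. Orai2 averaged 18.3 CPM in Wfs1KO and 16.6 CPM in WT, and Orai3 averaged 38.7 CPM in Wfs1KO and 40.3 CPM in WT.

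Of the 5 relatives of Tmbim6, 2 rose, 0 fell and 3 did not pass (median 0.20). Tmbim1 rose by 0.20 (edgeR adjusted p = 0.0167) and Ghitm, whose protein lies in the inner mitochondrial membrane, by 0.24 (edgeR adjusted p = 0.0218). Both lost the call without Wfs1KO replicate 4 (adjusted p = 0.0606 for Tmbim1 and 0.0707 for Ghitm), and Ghitm also without WT replicate 3 (0.0646) or WT replicate 4 (0.0611). Neither passed within replicates 1 and 2 or within replicates 3 and 4 alone.

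**Figure D4:**
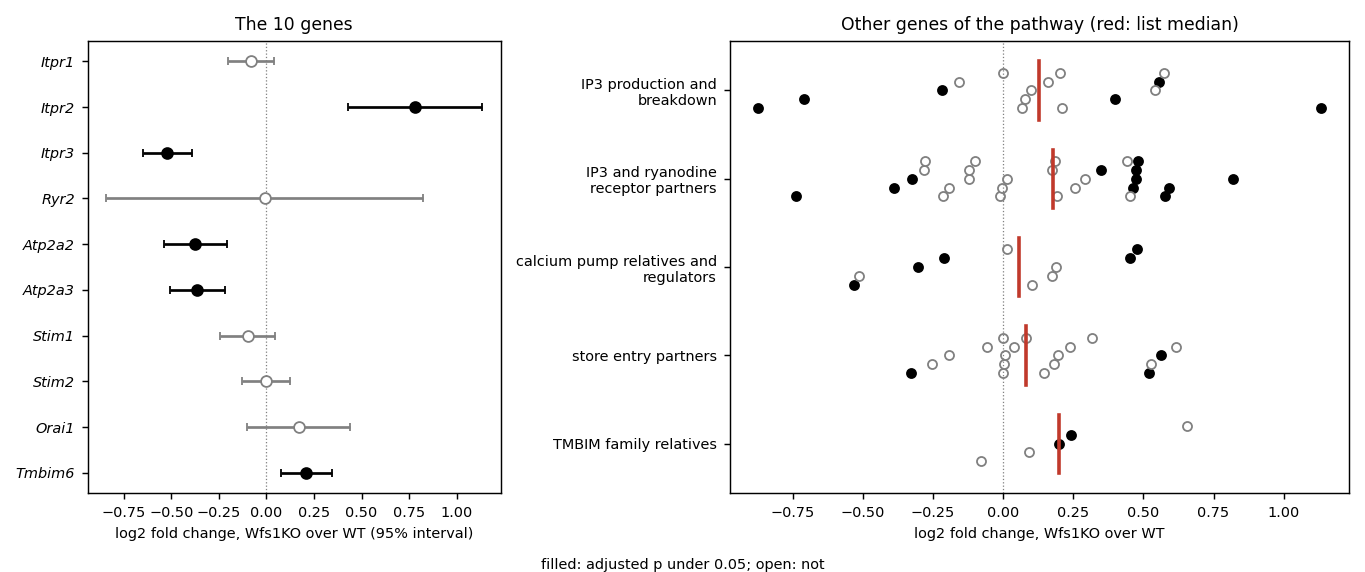
Left, log2 fold changes of the 10 genes (Wfs1KO over WT) with 95% intervals from edgeR. Right, log2 fold changes of the tested genes of the 5 related lists, with each list's median in red; filled points have an adjusted p under 0.05. The intervals of Itpr2 and Tmbim6 lie above 0 and those of Itpr3, Atp2a2 and Atp2a3 below 0, and each list holds points on both sides of 0.

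The genes whose log2 CPM followed Itpr2 most closely over the 8 libraries were Mitf (Pearson r = 0.990), Slc4a10 (0.990) and Dnah9 (0.984). Those nearest to Itpr3 were Adarb1 (0.993), Papss2 (0.991) and Kalrn (0.991). These correlations over 8 libraries include the difference between the genotypes and are given as a description. Dnah9 had 62.4 ± 11.2 CPM in Wfs1KO and 19.7 ± 5.43 CPM in WT, and Papss2 had 426 ± 42.0 CPM in Wfs1KO and 732 ± 42.3 CPM in WT (SD, n = 4 each).

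In the authors' deposited table the log2 fold changes were 0.70 for Itpr2, -0.52 for Itpr3, -0.37 for Atp2a2, -0.37 for Atp2a3 and 0.20 for Tmbim6, of Wfs1KO over WT. The adjusted p-values of these 5 in the authors' deposited table lay between 6.75e-14 (Itpr3) and 0.00448 (Tmbim6). For the other 5 genes they lay between 0.272 (Itpr1) and 0.973 (Ryr2) in the authors' deposited table.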

How the data were processed

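The submitters' processing notes name bcl2fastq, STAR 2.6.0a, HOMER 4.11.1, DESeq2 and the build mm10. Per the file headers, the deposited counts are raw reads over exons, 1 entry per gene, with no strand option; the exon length deposited beside them gave the values per kilobase. The authors also deposited log2 fold changes and p-values of Wfs1KO and WT; their sign is of Wfs1KO over WT. Their transformed log2 values per library were not used here. How reads shared by related genes were counted is not given in the sources used here.

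The count analysis used edgeR 4.0.16 under R 4.3.3 (filterByExpr with minimum count 10 and minimum total 15, TMM scaling, robust quasi-likelihood fit of genotype), tested on simulated data. Adjusted p-values cover all 15733 tested genes, including all 10 members. CPM use TMM-scaled library sizes. Ratios were tested with two-sided exact permutation tests (scipy 1.17.1). Alternatives used DESeq2 1.42.0, limma 3.58.1, other scalings, filters and thresholds, an acinar score, blocks, and each library left out. Chosen after seeing the data were fits on replicates 1 and 2 or 3 and 4 alone, and one that omits Wfs1KO replicates 3 and 4. Same-numbered samples of the genotypes deviated together across genes (r = 0.153, 0.443, 0.269 and 0.188 for replicates 1 to 4). Samples of different numbers were not compared. These values therefore cannot tell pairing by number from the split between replicates 1 and 2 and replicates 3 and 4. The labels do not say what the numbers mark, so pairing remains possible. The main fit and ratio tests leave pairing out, and the replicate block is an alternative. Members and lists were chosen with earlier results of these data known. Named genes were the 10 members, Wfs1, up to 3 called genes of smallest adjusted p per related list, the 3 genes most correlated with the most raised and most lowered member, and the most abundant gene per marker list.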

Additional observations from a re-analysis of the deposited data

How the results depend on the processing

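Itpr3 and Atp2a3 kept their direction and call under all 20 alternatives, with log2 fold changes of -0.59 to -0.48 for Itpr3 and -0.47 to -0.29 for Atp2a3. Itpr2 lost its call in 1 of 20, without Wfs1KO replicates 3 and 4 (0.72, adjusted p = 0.0714), Atp2a2 in 1 of 20 and Tmbim6 in 10 of 20. With no filter on low counts, with the acinar score as a covariate (Tmbim6 adjusted p = 0.0759 and 0.0526) and within replicates 3 and 4 alone, 1 member rose, and 0 rose without Wfs1KO replicates 3 and 4. Leaving out 1 library gave 1 to 2 members higher and 3 lower. Within replicates 3 and 4 alone 964 genes rose and 882 fell over the whole table, against 1635 and 1335 with all libraries, and 10 of the related genes rose. The replicate block changed no member's call (Itpr2 0.80, adjusted p = 0.0362; Tmbim6 0.21, adjusted p = 0.0376). It called 2932 genes, 2735 of them shared with the fit without it. As a pairing for the ratios, in an exact sign-flip permutation test, it gave p = 0.125 for Itpr2:Itpr3, the smallest that 4 pairs allow.

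The sign of genes near 0 was not fixed. Ryr2 was at 0.0857 with limma-voom, 0.0852 with the acinar score, 0.36 within replicates 1 and 2, 0.53 without Wfs1KO replicates 3 and 4, and -0.36 to 0.23 with 1 library left out. Stim2 was at 0.0049 with no filter, 0.0106 with the acinar score, 0.0203 within replicates 3 and 4, and -0.0336 to 0.0395 with 1 library left out. With 1 library left out, the log2 difference was -0.0337 to 0.0268 for Atp2a2:Atp2a3, 1.22 to 1.43 for Itpr2:Itpr3 and -0.13 to -0.04 for Stim1:Stim2, where 3 against 4 allows no p under 0.0571. Ryr2 had the fewest reads of the 10 genes, 12 to 85 per library.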

Other observations

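Reads of the other ryanodine receptor genes were few, 5 to 103 per library for Ryr1 and 27 to 93 for Ryr3. Ryr1, the skeletal muscle form, averaged 1.74 CPM in Wfs1KO and 2.17 CPM in WT, and Ryr3 averaged 2.48 CPM in Wfs1KO and 2.09 CPM in WT, with edgeR adjusted p-values of 0.854 and 0.506 (n = 4 each). The small SERCA inhibitors phospholamban (Pln, 2 to 14 reads per library) and sarcolipin (Sln, 0 to 1 read), known from muscle, did not pass the filter on low counts. These genes were named after their values were seen.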
